A study of Homo sapiens with 16 samples.

Results

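Messenger RNA levels of 42 genes of the protein folding machinery were described in NCI-H1299 cells, among 56865 annotated genes with a transcript in the tables. The genes were chosen by name from the network around the HSP70 chaperones: 2 heat shock transcription factors, 2 cytosolic HSP90 genes, 8 HSP90 co-chaperones, 1 HSP110 gene, 9 genes of J-domain proteins (the HSP40 family), 6 BAG genes, 3 small heat shock protein genes, 2 subunits of the mitochondrial chaperonin, 1 collagen chaperone and 8 subunits of the cytosolic chaperonin CCT. The rule goes by names and not by measured values, but it was drawn up with earlier results of these data known.

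NCI-H1299, a line of human non-small cell lung cancer, makes no p53. Libraries of polyadenylated RNA came from 4 groups of 4: Y220C MS78 and Y220C DMSO, NCI-H1299 cells stably expressing the p53 mutant Y220C, and Null MS78 and Null DMSO, the line without p53. Cells were exposed for 24 h to MS78 at 10 µM, a compound made to recruit the acetyltransferase p300/CBP to the Y220C protein, or to its vehicle DMSO. The Y220C line was kept in G418 at 500 µg/mL and the null line was not, so the transgene, G418 and any other difference between the lines cannot be told apart. The labels do not name the promoter of the transgene or the number of clones behind the line. They also leave out whether the 4 replicates of a group were separate cultures, and the p-values then reflect only how far these libraries differ, which may be technical.

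Molecular chaperones hold, fold or unfold other proteins. HSP90 takes over clients from HSP70 with the help of co-chaperones, J-domain proteins deliver clients to HSP70 and start its ATPase cycle, and HSP110 and BAG proteins release the nucleotide again. Many of the genes are controlled by HSF1, which binds heat shock elements made of inverted repeats of the triplets GAA and TTC when unfolded proteins accumulate. p53 is itself a client of HSP70 and HSP90, and destabilised p53 mutants are known to stay bound to them.

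Depth was 20.3 M to 27.7 M estimated reads per library. KRT8, KRT18 and VIM, markers of this carcinoma line, were high in all 16 libraries, while the epithelial surface genes EPCAM and CDH1 had 3 to 42 reads. In 8 libraries (Y220C MS78 and Null MS78 replicates 2, 3 and 4, and Y220C DMSO and Null DMSO replicate 1) 13 or 14 of 15 leukocyte markers were detected, with a summed level of 40.6 to 101.3 CPM and 55 to 99 reads of PTPRC, the leukocyte surface gene CD45. In the other 8 the sum was 0.491 to 1.21 CPM, 3 to 7 markers were detected and PTPRC had 0 or 1 read. By group the sum ran over 0.491 to 101.3 CPM in Y220C MS78, 0.667 to 41.4 in Y220C DMSO, 0.933 to 88.5 in Null MS78 and 0.863 to 40.6 in Null DMSO libraries, and the B cell gene MS4A1 was at 0 reads in 15 of the 16. The main contrasts were therefore also fitted within each set of 8 libraries.

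Where a promoter is known, the letters to which HSF1 binds can be read directly. RefSeq windows of 300 bases (GRCh38.p14), from 250 bases before the transcription start to 50 bases after it, were available for 36 of the 42 genes. The windows were searched on both strands for a pair of triplets, GAANNTTC or TTCNNGAA, and for a longer form in which the first triplet follows again after any 2 bases, so that each long match also holds short ones. The 5 windows below belong to genes among those with the largest increase under MS78 in p53-Y220C cells, and they show what such letters look like where they are present and where they are not. Each is written 5′ to 3′ on the strand of the gene. Capitals mark the triplets GAA and TTC of matches.
DNAJB1 (chr19:14518348-14518647, minus strand): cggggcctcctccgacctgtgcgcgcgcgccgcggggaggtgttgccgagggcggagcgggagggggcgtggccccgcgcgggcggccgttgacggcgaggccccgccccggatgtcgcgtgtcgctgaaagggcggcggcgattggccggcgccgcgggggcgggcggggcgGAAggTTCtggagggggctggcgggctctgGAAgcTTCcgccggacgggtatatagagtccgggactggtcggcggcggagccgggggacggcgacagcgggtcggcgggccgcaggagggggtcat
CHORDC1 (chr11:90223000-90223299, minus strand): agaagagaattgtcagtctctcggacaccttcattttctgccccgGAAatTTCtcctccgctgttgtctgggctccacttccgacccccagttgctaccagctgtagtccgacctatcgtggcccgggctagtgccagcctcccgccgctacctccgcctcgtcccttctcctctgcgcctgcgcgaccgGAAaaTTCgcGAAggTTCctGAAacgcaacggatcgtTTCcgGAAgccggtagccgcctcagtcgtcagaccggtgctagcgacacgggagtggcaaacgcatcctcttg
DNAJB4 (chr1:78004689-78004988, plus strand): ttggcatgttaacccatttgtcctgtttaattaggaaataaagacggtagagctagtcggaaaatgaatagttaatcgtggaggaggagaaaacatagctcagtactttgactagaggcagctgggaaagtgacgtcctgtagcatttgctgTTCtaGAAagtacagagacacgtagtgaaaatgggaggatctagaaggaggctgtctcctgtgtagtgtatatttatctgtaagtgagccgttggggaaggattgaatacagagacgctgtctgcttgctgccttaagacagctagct
HSPB8 (chr12:119178681-119178980, plus strand): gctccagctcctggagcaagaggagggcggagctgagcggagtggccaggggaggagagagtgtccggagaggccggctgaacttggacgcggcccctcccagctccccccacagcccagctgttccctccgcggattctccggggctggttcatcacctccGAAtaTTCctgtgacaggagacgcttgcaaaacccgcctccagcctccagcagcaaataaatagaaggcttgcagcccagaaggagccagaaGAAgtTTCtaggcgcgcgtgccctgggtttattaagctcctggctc
BAG3 (chr10:119651130-119651429, plus strand): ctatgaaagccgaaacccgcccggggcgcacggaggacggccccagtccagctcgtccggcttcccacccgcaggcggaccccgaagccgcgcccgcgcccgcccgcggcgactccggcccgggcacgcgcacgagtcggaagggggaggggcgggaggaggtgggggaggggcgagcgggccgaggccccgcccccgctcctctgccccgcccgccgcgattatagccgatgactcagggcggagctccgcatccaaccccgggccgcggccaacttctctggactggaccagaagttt

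The DNAJB1 window held 2 short matches, beginning 77 and 47 bases before the start. CHORDC1 had 6 short matches, of which those from 60 to 38 bases before the start run into each other and form 3 long ones. DNAJB4 had 1 match at 98 bases before the start and HSPB8 had 1 at 88 bases before and 1 at 4 bases after it. The main HSPB8 transcript in the annotation starts 289 bases upstream of this RefSeq start, so both HSPB8 matches lie after the main start. BAG3 had no match in its window, which says only that these letters are not in these 300 bases.

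Over all genes with a window, 13 of the 25 that rose under MS78 in p53-Y220C cells had a short match and 6 had a long one (HSP90AA1, CHORDC1, DNAJA1, DNAJB6, HSPD1 and SERPINH1). Of the long ones, that of DNAJA1 began 3 bases after the RefSeq start and the others lay before it. The main transcripts of HSP90AA1 and SERPINH1 start 147 and 167 bases upstream of the RefSeq start, so their long matches lie after the main start. No match was found for the 7 genes with a window that were not called, for the 3 that fell or for the 1 that was not tested. For 5 genes (HSPH1, HSPE1, DNAJB5, CCT5 and DNAJA4) the RefSeq start in the window lies 385 to 3799 bases from the main transcript's start, and none of these windows had a match. Without these 5 genes 13 of 23 genes that rose, 0 of 6 that were not called and 0 of 2 that fell had one. The limit was 300 bases, so HSPB8, at 289 bases, was kept. HSPE1 was left out although its RefSeq start is that of HSPE1-202, which held 53.4% of HSPE1 TPM in Y220C MS78 libraries. Among all 35116 windows of the table, 13.49% had a short match and 0.49% a long one. These are counts of letters and not of bound sites, no test was made of them, and the genes were chosen knowing that many respond to heat shock.

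**Figure D1:**
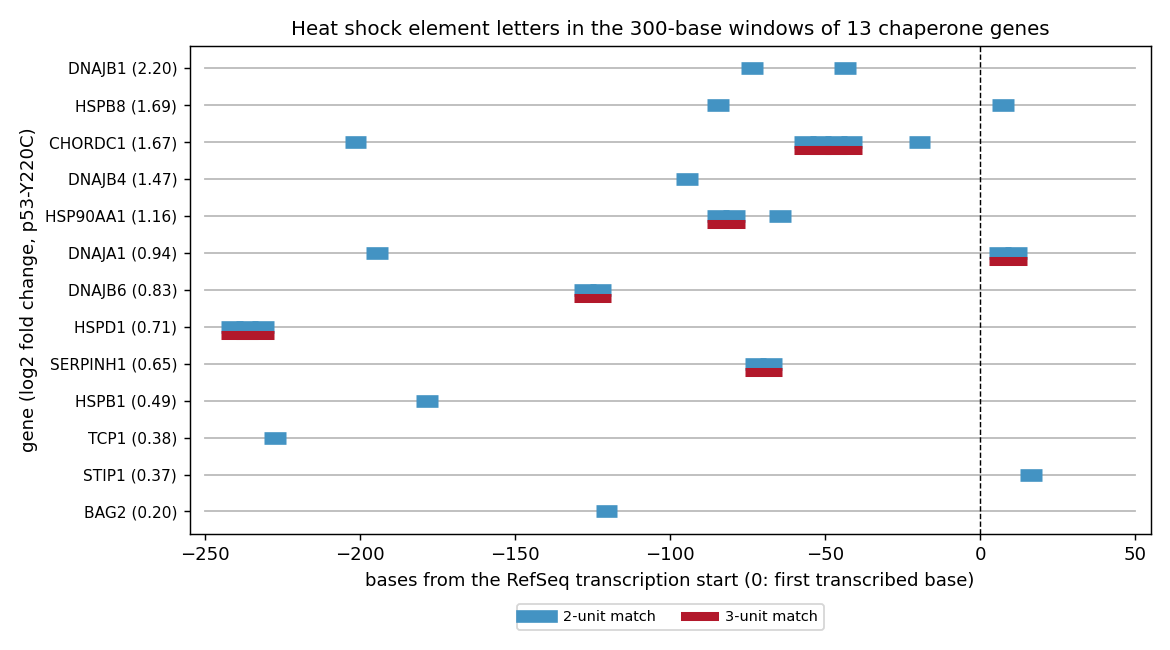
Positions of heat shock element letters in the windows of the 13 genes that hold at least 1 match, in bases from the RefSeq transcription start, with the log2 fold change of MS78 over DMSO in p53-Y220C cells in brackets. Blue bars are 2-unit matches and red bars 3-unit matches, where a long match is drawn along the short ones it holds. DNAJB1, HSPB8, CHORDC1, DNAJB4, HSP90AA1 and SERPINH1 have matches close before the RefSeq start, and those of HSPD1 and TCP1 lie near the far end of the window. The main transcripts of HSPB8, HSP90AA1 and SERPINH1 start 289, 147 and 167 bases upstream of the RefSeq start, so their matches lie after the main start. For HSPD1 and TCP1 the main start lies 207 and 147 bases upstream, which is nearer to their matches.

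Under MS78 most of this machinery rose in p53-Y220C cells, while in p53-null cells smaller parts of it rose and fell. Of 41 genes tested in p53-Y220C cells, 28 rose (68.3%), 4 fell (9.76%) and 9 were not called, where 24.9% of all 15687 genes tested rose and 23.6% fell. The median log2 fold change was 0.28 over the 41 genes and -0.01 over all genes tested. CRYAB passed the filter only through the group in which it was high, and without it 27 of 40 genes rose, with a median of 0.24. In p53-null cells 10 rose (24.4%), 7 fell (17.1%) and 24 were not called, against 14.8% of all genes that rose and 13.3% that fell, with a median of -0.03 over the 41 genes and 0.01 over all. The 2 responses were compared directly as an interaction: 28 genes had a higher log2 fold change in p53-Y220C than in p53-null cells, 3 a lower one (FKBP5, STUB1 and BAG1) and 10 were not called, while 14.4% and 12.4% of all genes were higher and lower. Without CRYAB, 27 of 40 genes were higher in this comparison. None of the 3 lower ones was called within the libraries without leukocyte reads (adjusted p = 0.193 for FKBP5, 0.821 for STUB1 and 0.282 for BAG1), FKBP5 and BAG1 were also not called within those with such reads (adjusted p = 0.12 and 0.111), and STUB1 was not called in 11 of 27 alternative fits. A call is an adjusted p under 0.05 in edgeR's quasi-likelihood test, and log2 fold changes are given ± their standard error (SE). In such bulk libraries, more cells with a transcript and more of it per cell cannot be told apart. DNAJA4, a J-domain gene with 2 to 8 reads per library, did not pass the filter on low counts and was not tested.

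The 42 genes together held 2.45% to 2.57% of all reads in Y220C MS78 libraries, 1.63% to 1.71% in Y220C DMSO libraries, 1.68% to 1.74% in Null MS78 libraries and 1.70% to 1.76% in Null DMSO libraries. Per length, HSP90AA1 alone made up 21.7% ± 0.33 of their summed TPM in Y220C MS78 libraries and 14.7% ± 0.321 in Y220C DMSO libraries, and 13.9% ± 0.099 in Null MS78 libraries and 12.7% ± 0.168 in Null DMSO libraries (SD, n = 4). Within each set of 8 libraries 1 arm of every MS78 contrast is a single library, of DMSO in the set with leukocyte reads and of MS78 in the set without, which the fit assumes to vary like the others. CRYAB aside, 14 genes passed the test in p53-Y220C cells with a log2 fold change of at least 0.5, and all 14 were also called in both sets. These 14 were picked by the fit to all libraries, of which both sets are parts, so the calls within the sets are no independent check. Their values differed from the pooled ones by -0.08 to 0.28 within the libraries with leukocyte reads and by -0.05 to 0.11 within those without. Their difference between the lines was called for 14 of 14 in the libraries with leukocyte reads and for 13 of 14 in those without, where HSPB8 (adjusted p = 0.284) was not. Other calls were lost more often: counting all alternative fits, the sets included, 22 of 32 calls in p53-Y220C cells were kept in every one, as were 18 of 31 of the interaction, 9 of 23 between the lines under DMSO and 1 of 17 in p53-null cells, that of HSPB1.

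**Figure D2:**
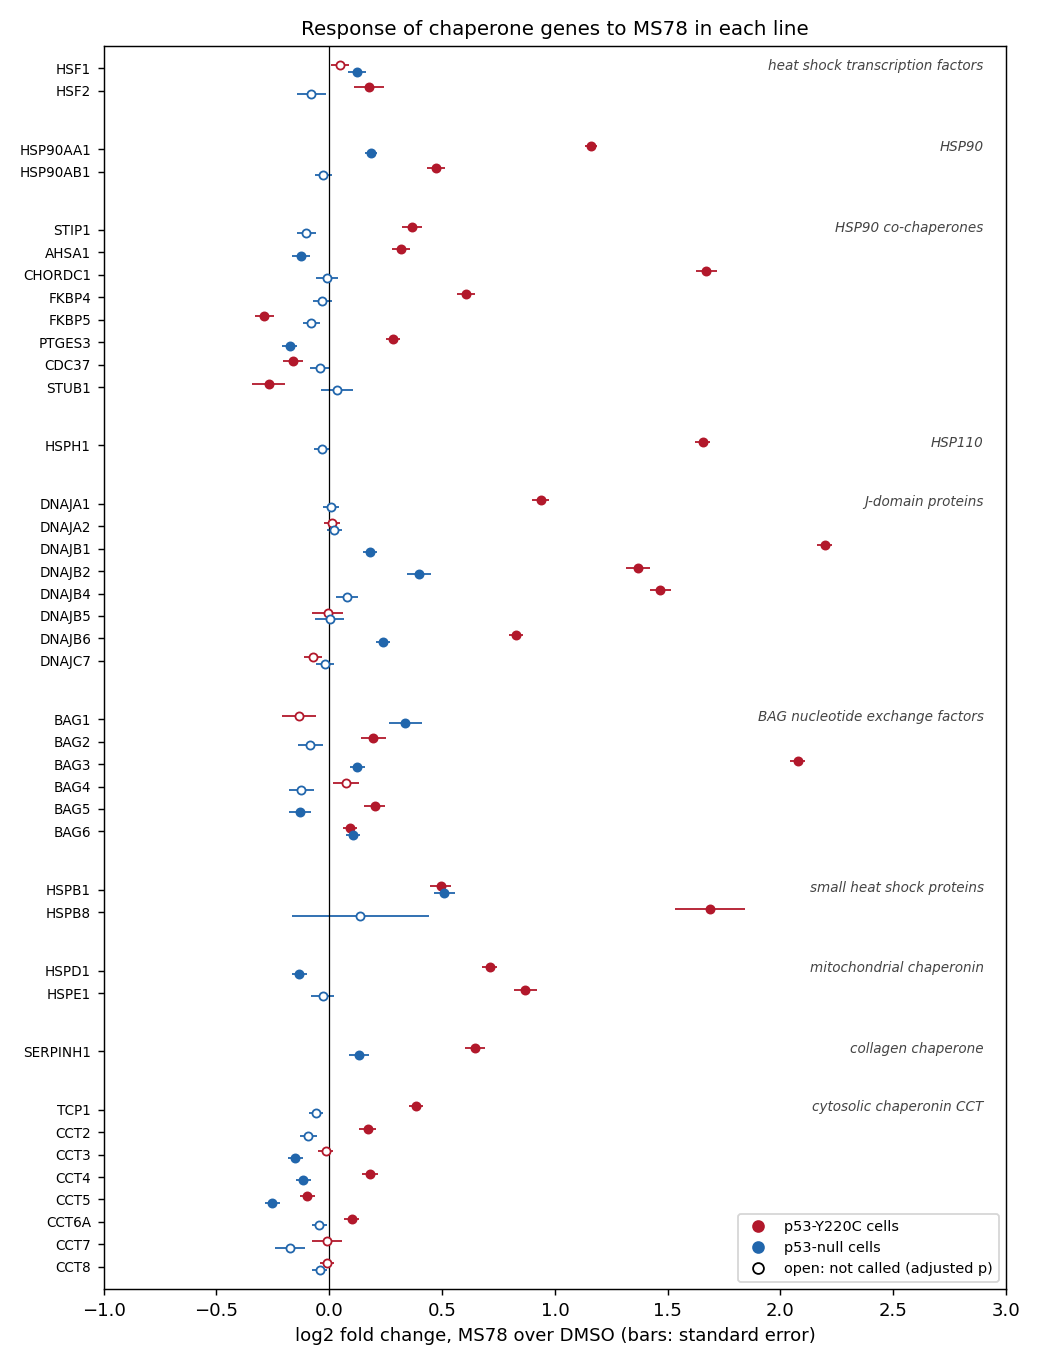
Log2 fold change of MS78 over DMSO with its standard error for 40 chaperone genes, ordered by role, in p53-Y220C cells (red) and in p53-null cells (blue), filled where the adjusted p was under 0.05. The red points reach 2.20 (DNAJB1) while no blue point passes 0.51 (HSPB1). CRYAB is left out because its fitted fold change depends on libraries with 0 reads, and DNAJA4 because it was not tested.

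The 2 transcription factor genes moved little. HSF1, the main regulator of the heat shock response, had 176, 184, 168 and 164 CPM in the Y220C MS78 libraries, against 164, 178, 165 and 161 CPM in the Y220C DMSO libraries, and the groups overlapped. Its log2 fold change of 0.05 ± 0.04 (SE) was not called (adjusted p = 0.335). In p53-null cells HSF1 had 187, 195, 197 and 196 CPM in the Null MS78 libraries, against 184, 176, 175 and 178 CPM in the Null DMSO libraries, with no overlap between the groups. This was a log2 fold change of 0.12 ± 0.04 (adjusted p = 0.0261), a call that was lost in some alternative fits, and the difference between the lines was not called (adjusted p = 0.376). HSF1 overlaps DGAT1 on the other strand, and whether counting used strand is not stated, so some of its reads may be of DGAT1.

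HSF2, a related factor that can form trimers with HSF1, had 33.4, 33.2, 30.8 and 31.9 CPM in the Y220C MS78 libraries, against 30.3, 26.7, 26.2 and 31.1 CPM in the Y220C DMSO libraries. In p53-null cells it had 29.2, 26.8, 26.2 and 25.3 CPM in the Null MS78 libraries, against 26.2, 26.7, 30.1 and 30.6 CPM in the Null DMSO libraries. The highest DMSO library of the Y220C line lay within the range of the MS78 libraries, and the null groups overlapped widely. HSF2 rose by 0.17 ± 0.066 in p53-Y220C cells (adjusted p = 0.0333), a call lost in some alternative fits, and had -0.08 ± 0.065 in p53-null cells (adjusted p = 0.409).

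Both cytosolic HSP90 genes rose in p53-Y220C cells, the stress-inducible HSP90AA1 (chr14:102080738-102139699, minus strand, GRCh38) by more than the constitutive HSP90AB1 (chr6:44246166-44253888, plus strand). HSP90AA1 had 8894, 8331, 8901 and 8892 CPM in the Y220C MS78 libraries, against 3994, 3974, 3903 and 3794 CPM in the Y220C DMSO libraries. It had 4167, 4009, 4073 and 4194 CPM in the Null MS78 libraries, against 3666, 3660, 3554 and 3600 CPM in the Null DMSO libraries. The lowest Y220C MS78 library stood far above every other library, and in the null line too the MS78 libraries lay above the DMSO libraries without overlap. The log2 fold change was 1.16 ± 0.027 in p53-Y220C cells (SE, 2.23-fold, adjusted p = 2.88e-18) and 0.18 ± 0.027 in p53-null cells (1.14-fold, adjusted p = 2.04e-05), and the 2 differed by 0.98 ± 0.038 (adjusted p = 1.39e-13). Within the libraries with leukocyte reads the value in p53-null cells was not called (0.15, adjusted p = 0.0566). HSP90AB1 had 3544, 3363, 3519 and 3653 CPM in the Y220C MS78 libraries, against 2632, 2683, 2457 and 2377 CPM in the Y220C DMSO libraries. Null cells had 2482, 2456, 2437 and 2623 CPM in the Null MS78 libraries, against 2573, 2645, 2523 and 2438 CPM in the Null DMSO libraries. Only the Y220C MS78 libraries stood apart, and the other 3 groups lay over each other. HSP90AB1 rose by 0.47 ± 0.038 on the log2 scale in p53-Y220C cells (adjusted p = 2.71e-09), and had -0.03 ± 0.038 in p53-null cells (adjusted p = 0.677). Per transcript length, HSP90AA1 TPM over HSP90AB1 TPM was 1.87 ± 0.071 in Y220C MS78 libraries, 1.15 ± 0.051 in Y220C DMSO libraries, 1.21 ± 0.027 in Null MS78 libraries and 1.05 ± 0.028 in Null DMSO libraries (SD, n = 4).

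**Figure D3:**
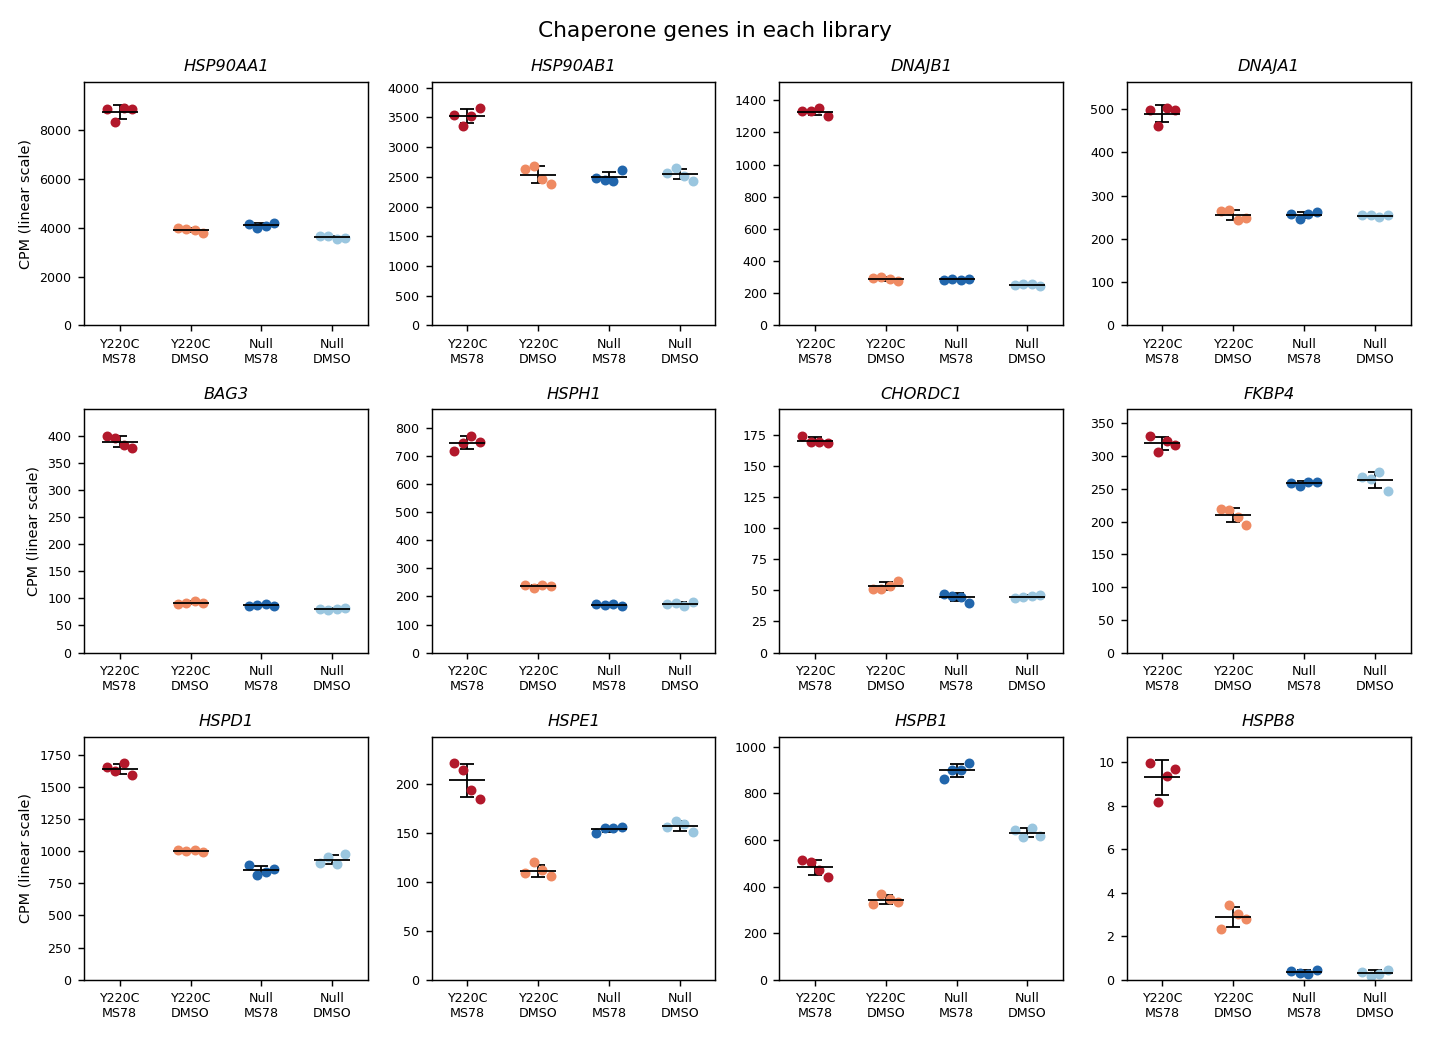
CPM of 12 chaperone genes in each of the 16 libraries on linear axes that start at 0, with groups in the order Y220C MS78, Y220C DMSO, Null MS78 and Null DMSO. Points are libraries and black bars the group mean and SD (n = 4). In 11 panels the Y220C MS78 libraries are the highest, and HSPB1 is the exception, where the Null MS78 libraries are highest at 863 to 931 CPM.

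The 8 HSP90 co-chaperones split, with 5 higher and 3 lower in p53-Y220C cells. CHORDC1, which encodes the HSP90-binding protein morgana (chr11:90201160-90223364, minus strand), had the largest change. It had 174, 169.5, 169 and 168 CPM in the Y220C MS78 libraries, against 51.3, 51.1, 53.7 and 57.8 CPM in the Y220C DMSO libraries. The null line had 47.1, 45.6, 44.9 and 40.1 CPM in the Null MS78 libraries, against 43.5, 44.8, 45.3 and 45.9 CPM in the Null DMSO libraries. The Y220C MS78 libraries were close to each other and far above every other library. The log2 fold change was 1.67 ± 0.047 in p53-Y220C cells (SE, 3.19-fold, adjusted p = 6.13e-17), against -0.01 ± 0.049 in p53-null cells (adjusted p = 0.895).

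The immunophilin genes FKBP4 and FKBP5, whose proteins compete for a place in the HSP90 complexes of steroid receptors, moved in opposite directions. FKBP4 had 331, 306, 323 and 317 CPM in the Y220C MS78 libraries, against 219, 217, 207 and 196 CPM in the Y220C DMSO libraries. p53-null cells had 258, 254, 261 and 261 CPM in the Null MS78 libraries, against 268, 266, 276 and 247 CPM in the Null DMSO libraries. Under MS78 FKBP4 in the Y220C line lay above the null line, whereas under DMSO it lay below it. FKBP4 rose by 0.61 ± 0.041 in p53-Y220C cells (adjusted p = 1.15e-10), and its value in p53-null cells was -0.03 ± 0.04 (adjusted p = 0.637). FKBP5 averaged 61.4 ± 1.98 CPM in Y220C MS78 libraries, 74.9 ± 3.13 in Y220C DMSO libraries, 115 ± 3.95 in Null MS78 libraries and 122 ± 3.39 in Null DMSO libraries (SD, n = 4). It fell by 0.29 on the log2 scale in p53-Y220C cells (SE 0.041, adjusted p = 6.94e-06), with no overlap between the groups. FKBP4 TPM over FKBP5 TPM was 5.88 ± 0.329 in Y220C MS78 libraries and 3.22 ± 0.211 in Y220C DMSO libraries, and 2.59 ± 0.055 in Null MS78 libraries and 2.44 ± 0.19 in Null DMSO libraries (SD, n = 4).

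STIP1, which joins HSP70 to HSP90, AHSA1, which stimulates the HSP90 ATPase, and PTGES3, the p23 protein that holds HSP90 in its closed form, rose by smaller amounts in p53-Y220C cells: 0.37, 0.32 and 0.28 on the log2 scale. In p53-null cells AHSA1 and PTGES3 fell by 0.12 and 0.18, and STIP1 had -0.10 (adjusted p = 0.0872). The AHSA1 call was lost in some alternative fits, and the PTGES3 call within both sets of libraries (-0.15 in each). The response of all 3 was higher in p53-Y220C than in p53-null cells, by 0.44 to 0.47. CDC37, which brings protein kinases to HSP90, averaged 213 ± 8.62 CPM in Y220C MS78 libraries and 238 ± 14.9 in Y220C DMSO libraries and fell by 0.16 (adjusted p = 0.00532). STUB1, the ubiquitin ligase CHIP that marks clients of both chaperones for degradation, averaged 77.3 ± 5.68 CPM in Y220C MS78 libraries and 93.1 ± 11.2 in Y220C DMSO libraries and fell by 0.27 (adjusted p = 0.00485). Within the libraries without leukocyte reads CDC37 had -0.06 (adjusted p = 0.672) and STUB1 -0.13 (adjusted p = 0.551). Neither was called in p53-null cells (adjusted p = 0.547 and 0.764). Reads of AHSA1 and STUB1 may include those of VIPAS39 and JMJD8, which overlap them on the other strand.

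HSPH1, the HSP110 gene whose protein exchanges nucleotide on HSP70 and takes part in pulling aggregates apart (chr13:31134974-31162388, minus strand), rose 3.15-fold in p53-Y220C cells. It had 719.9, 747, 773 and 752 CPM in the Y220C MS78 libraries, against 240, 231, 239.8 and 239 CPM in the Y220C DMSO libraries. The libraries of the null line had 173, 168, 173 and 165 CPM in the Null MS78 libraries, against 172, 178, 166 and 180.3 CPM in the Null DMSO libraries. The null groups overlapped, and both lay below all Y220C libraries. The log2 fold change was 1.66 ± 0.034 in p53-Y220C cells (SE, adjusted p = 2.84e-19) and -0.03 ± 0.034 in p53-null cells (adjusted p = 0.522), and the lines differed already under DMSO by 0.45 ± 0.034 (adjusted p = 1.04e-09).

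Of the 8 J-domain genes tested, 5 rose in p53-Y220C cells (DNAJB1, DNAJB4, DNAJB2, DNAJA1 and DNAJB6) and 3 were not called (DNAJA2, DNAJB5 and DNAJC7). None was called lower by edgeR or by DESeq2, and none had a lower value at an unadjusted p under 0.05. DNAJB1, the most studied cytosolic J-domain partner of HSP70 (chr19:14514770-14529770, minus strand), had 1331, 1332, 1350 and 1305 CPM in the Y220C MS78 libraries, against 296, 302, 288 and 275 CPM in the Y220C DMSO libraries. Null cells had 284, 291, 282 and 287 CPM in the Null MS78 libraries, against 251, 257, 257 and 244 CPM in the Null DMSO libraries. Each Y220C MS78 library had more than 4 times the level of any other library, and in the null line the MS78 libraries were slightly above the DMSO libraries without overlap. DNAJB1 had the largest fitted fold change of the 41 genes apart from CRYAB, with 2.20 ± 0.033 in p53-Y220C cells (SE, 4.58-fold, adjusted p = 1.95e-21) and 0.18 ± 0.032 in p53-null cells (1.13-fold, adjusted p = 0.000202). Within the libraries without leukocyte reads the value in p53-null cells was 0.16 and was not called. DNAJB1 overlaps TECR on the other strand, so part of its reads may be of TECR.

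DNAJB4, a close relative of DNAJB1 (chr1:77979175-78017964, plus strand), had 84.2, 80.2, 87.0 and 80.1 CPM in the Y220C MS78 libraries, against 29.1, 30.7, 29.2 and 30.9 CPM in the Y220C DMSO libraries. In the null line it had 28.4, 26.8, 27.1 and 24.5 CPM in the Null MS78 libraries, against 25.1, 24.9, 25.9 and 25.6 CPM in the Null DMSO libraries. The Y220C MS78 libraries were well apart from all others. DNAJB4 rose by 1.47 ± 0.045 in p53-Y220C cells (adjusted p = 3.18e-16) and had 0.08 ± 0.048 in p53-null cells (adjusted p = 0.263).

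DNAJB2, whose protein carries ubiquitin-interacting motifs and passes clients to the proteasome (chr2:219279267-219286900, plus strand), rose in both lines. It had 113, 113, 107 and 114 CPM in the Y220C MS78 libraries, against 44.2, 45.3, 43.2 and 40.2 CPM in the Y220C DMSO libraries. The null line had 54.2, 55.2, 58.1 and 61.3 CPM in the Null MS78 libraries, against 44.3, 45.7, 44.7 and 39.1 CPM in the Null DMSO libraries. In each line all MS78 libraries lay above all DMSO libraries. Log2 fold changes were 1.37 ± 0.052 in p53-Y220C cells (SE, adjusted p = 1.18e-14) and 0.40 ± 0.053 in p53-null cells (adjusted p = 6.38e-06), with a difference of 0.97 ± 0.074 (adjusted p = 7.25e-09). Within the libraries without leukocyte reads DNAJB2 had 0.33 in p53-null cells and was not called. DNAJB6, which keeps polyglutamine proteins from aggregating, also rose in both lines. It had 386, 369, 394 and 384 CPM in the Y220C MS78 libraries, against 222, 220, 209.9 and 213 CPM in the Y220C DMSO libraries. p53-null cells had 248, 241, 247 and 249 CPM in the Null MS78 libraries, against 208, 206, 212 and 209 CPM in the Null DMSO libraries. Again no MS78 library fell among the DMSO libraries of its line. The log2 fold change of DNAJB6 was 0.83 ± 0.031 in p53-Y220C cells (adjusted p = 8.88e-15) and 0.24 ± 0.031 in p53-null cells (adjusted p = 4.13e-06), a call lost in some alternative fits.

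DNAJA1, a farnesylated cytosolic J-domain protein that binds misfolded p53 mutants (chr9:33025211-33039907, plus strand), had 498, 461, 502 and 498 CPM in the Y220C MS78 libraries, against 264, 266, 244 and 249 CPM in the Y220C DMSO libraries. The libraries of the null line had 257, 245, 257 and 262 CPM in the Null MS78 libraries, against 255, 256, 250.4 and 254 CPM in the Null DMSO libraries. The Y220C MS78 libraries stood apart and the other 3 groups lay over each other. DNAJA1 had a log2 fold change of 0.94 ± 0.036 in p53-Y220C cells (SE, adjusted p = 1.75e-14) and 0.01 ± 0.036 in p53-null cells (adjusted p = 0.904). Its paralog DNAJA2 averaged 111 ± 2.96 CPM in Y220C MS78 libraries and 109.5 ± 2.47 in Y220C DMSO libraries (adjusted p = 0.788). DNAJB5 averaged 21.9 ± 2.35 CPM in Y220C MS78 libraries and 22.04 ± 0.318 in Y220C DMSO libraries (adjusted p = 0.947). For DNAJC7, which binds both HSP70 and HSP90, the means were 82.5 ± 3.00 CPM in Y220C MS78 libraries and 86.6 ± 0.448 in Y220C DMSO libraries (adjusted p = 0.159), with opposite-strand overlaps to CNP and NKIRAS2. DNAJB1 held 48.2% ± 0.6 of the TPM of the 9 J-domain genes in Y220C MS78 libraries and 26.7% ± 1.4 in Y220C DMSO libraries, and 26.0% ± 0.812 in Null MS78 libraries and 25.1% ± 0.786 in Null DMSO libraries (SD, n = 4).

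Among the 6 BAG genes 4 rose in p53-Y220C cells, and BAG3 stood far ahead of the rest. BAG3, a stress-induced partner of HSP70 that directs clients to autophagy (chr10:119651370-119677819, plus strand), had 400, 396, 382 and 378 CPM in the Y220C MS78 libraries, against 90.5, 91.97, 95.3 and 91.0 CPM in the Y220C DMSO libraries. In the null line it had 86.5, 87.8, 89.2 and 86.1 CPM in the Null MS78 libraries, against 80.0, 78.3, 79.5 and 83.1 CPM in the Null DMSO libraries. The Y220C MS78 libraries lay far above the others, and the 2 null groups did not overlap although they were close. The log2 fold change was 2.08 ± 0.034 in p53-Y220C cells (SE, 4.22-fold, adjusted p = 5e-21) and 0.12 ± 0.034 in p53-null cells (adjusted p = 0.009), where the call was lost in some alternative fits. BAG2, an inhibitor of CHIP, rose by 0.20 ± 0.057 in p53-Y220C cells, BAG5 by 0.20 ± 0.047 and BAG6, which escorts mislocalised membrane proteins, by 0.09 ± 0.032. The calls of BAG5 and BAG6 were lost in some alternative fits, and BAG2 and BAG5 overlap RAB23 and KLC1 on the other strand. BAG4 averaged 41.4 ± 2.28 CPM in Y220C MS78 libraries and 39.3 ± 2.43 in Y220C DMSO libraries (adjusted p = 0.305) and overlaps LSM1. BAG1, which couples HSP70 to the proteasome, rose in p53-null cells and was not called in p53-Y220C cells. It averaged 27.0 ± 1.62 CPM in Y220C MS78 libraries and 29.6 ± 2.66 in Y220C DMSO libraries, and 29.3 ± 1.39 in Null MS78 libraries and 23.2 ± 2.64 in Null DMSO libraries (SD, n = 4). Its log2 fold change was 0.34 ± 0.074 in p53-null cells (adjusted p = 0.00159) and -0.13 ± 0.075 in p53-Y220C cells (adjusted p = 0.152), a difference of -0.47 ± 0.11 (adjusted p = 0.00234). Within the sets the value in p53-null cells was 0.19 with leukocyte reads (adjusted p = 0.207) and 0.32 without (adjusted p = 0.227).

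Of the 3 small heat shock protein genes HSPB1 and HSPB8 rose in p53-Y220C cells, and CRYAB was detected almost only there under MS78. HSPB1, which encodes a widely expressed holdase that binds unfolding proteins without ATP, rose in both lines. It averaged 484 ± 32.6 CPM in Y220C MS78 libraries and 343 ± 19.2 in Y220C DMSO libraries, and 898 ± 28.1 in Null MS78 libraries and 631 ± 20.3 in Null DMSO libraries (SD, n = 4). HSPB1 rose by 0.49 ± 0.046 in p53-Y220C cells (adjusted p = 2.18e-08) and by 0.51 ± 0.046 in p53-null cells (adjusted p = 2.32e-08), and the difference was -0.02 ± 0.065 (adjusted p = 0.894). Neither pair of groups overlapped. Under DMSO it was lower in the Y220C than in the null line, with a log2 difference of -0.88 ± 0.046 (adjusted p = 4.42e-12).

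HSPB8, which works with BAG3 on clients bound for autophagy (chr12:119178642-119221131, plus strand), had 9.97, 8.18, 9.34 and 9.69 CPM in the Y220C MS78 libraries, against 2.31, 3.43, 3.01 and 2.80 CPM in the Y220C DMSO libraries. Few reads were found in the null line, with 0.389, 0.324, 0.249 and 0.436 CPM in the Null MS78 libraries, against 0.343, 0.173, 0.259 and 0.471 CPM in the Null DMSO libraries. The gene was thus at single-digit CPM in the Y220C line and below 0.5 CPM in the null line. HSPB8 rose by 1.69 ± 0.15 in p53-Y220C cells (adjusted p = 1.37e-08) and was already higher in the Y220C than in the null line under DMSO, by 3.17 ± 0.22 (9.02-fold, adjusted p = 3.41e-10). The log2 fold change in p53-null cells was 0.14 ± 0.3 (adjusted p = 0.827), with a standard error that leaves a sizeable change undetectable at this depth.

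CRYAB, the gene of alpha-B crystallin (chr11:111908565-111923722, minus strand), was counted almost only in Y220C MS78 libraries. It had 33, 31, 24 and 30 reads in the Y220C MS78 libraries, against 0, 1, 0 and 0 reads in the Y220C DMSO libraries. It had 0 reads in all 4 Null MS78 libraries, and 1, 0, 0 and 1 reads in the Null DMSO libraries. Over the groups this was 118 reads against 1 in the Y220C line, a ratio of 129.9 after scaling to depth, with a 95% exact interval of 22.9 to 5173.6 that covers counting error only. Against a floor of 3 reads over the Null MS78 group, the Y220C MS78 level was at least 48.4-fold higher. CRYAB passed the filter only through the group in which it was high, and even there it averaged 1.48 ± 0.157 CPM (SD, n = 4). It shares its promoter region with HSPB2 on the other strand.

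HSPD1 and HSPE1 encode the barrel and the lid of the mitochondrial chaperonin and lie head to head on chromosome 2 (chr2:197486581-197516737, minus strand, and chr2:197499994-197503457, plus strand). HSPD1 had 1656, 1625, 1688 and 1591 CPM in the Y220C MS78 libraries, against 1007, 998, 1007 and 996 CPM in the Y220C DMSO libraries. The null line had 891, 815, 837 and 865 CPM in the Null MS78 libraries, against 910, 953, 898 and 978 CPM in the Null DMSO libraries. The Y220C MS78 libraries were the highest, and in the null line the ranges of the groups did not overlap, with MS78 lower. HSPD1 rose by 0.71 ± 0.034 in p53-Y220C cells (SE, 1.64-fold, adjusted p = 4.16e-13) and fell by 0.13 on the log2 scale in p53-null cells (adjusted p = 0.00443). The call in p53-null cells was lost within both sets (-0.13 with leukocyte reads and -0.09 without). HSPE1 had 221, 214, 194 and 185 CPM in the Y220C MS78 libraries, against 109, 119.8, 112 and 105 CPM in the Y220C DMSO libraries. p53-null cells had 149.8, 154, 154 and 156 CPM in the Null MS78 libraries, against 156, 162, 159 and 151 CPM in the Null DMSO libraries. Here the Y220C DMSO libraries were the lowest of the 4 groups and the null groups overlapped. HSPE1 rose by 0.87 ± 0.051 in p53-Y220C cells (1.83-fold, adjusted p = 1.28e-11), with -0.03 ± 0.05 in p53-null cells (adjusted p = 0.72). HSPE1 TPM over HSPD1 TPM was 0.646 ± 0.078 in Y220C MS78 libraries, 0.5 ± 0.025 in Y220C DMSO libraries, 0.834 ± 0.02 in Null MS78 libraries and 0.766 ± 0.037 in Null DMSO libraries (SD, n = 4). The 2 genes overlap on opposite strands in the annotation, and a share of HSPE1 reads may belong to the far more abundant HSPD1.

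SERPINH1, the collagen chaperone of the endoplasmic reticulum (chr11:75562056-75572783, plus strand), had 279, 270.1, 255 and 250.2 CPM in the Y220C MS78 libraries, against 165, 171, 169.6 and 169.5 CPM in the Y220C DMSO libraries. The libraries of the null line had 180.4, 189.5, 198 and 192 CPM in the Null MS78 libraries, against 169, 167, 189 and 169 CPM in the Null DMSO libraries. The Y220C groups were well separated, while 1 Null DMSO library lay within the range of the Null MS78 libraries. Log2 fold changes were 0.65 ± 0.044 in p53-Y220C cells (adjusted p = 1.49e-10) and 0.13 ± 0.044 in p53-null cells (adjusted p = 0.0284), the second being lost in some alternative fits.

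The 8 subunits of CCT, the ring-shaped cytosolic chaperonin that folds actin and tubulin, changed little by comparison. In p53-Y220C cells TCP1 rose by 0.38 ± 0.03 (adjusted p = 1.64e-09), CCT4 by 0.18 ± 0.034, CCT2 by 0.17 ± 0.038 and CCT6A by 0.10 ± 0.032, and CCT5 fell by 0.10 (adjusted p = 0.0231). CCT3, CCT7 and CCT8 had values between -0.02 and -0.01 and were not called. The median over the 8 subunits was 0.04. In p53-null cells CCT3, CCT4 and CCT5 fell by 0.15, 0.12 and 0.25, the other 5 were not called and the median was -0.10. CCT7 was called lower there in 12 of 27 alternative fits, DESeq2 among them (-0.17, adjusted p = 0.0288), and TCP1 with counts from length-scaled TPM (-0.20, adjusted p = 6.84e-05). None was called higher there by edgeR or DESeq2, and none had a higher value at an unadjusted p under 0.05. The response was higher in p53-Y220C than in p53-null cells for 6 of the 8, by 0.13 (CCT3) to 0.44 (TCP1). Of these differences that of CCT3 (0.04 to 0.22) was not called in 15 of 27 alternative fits. That of CCT6A was not called in 7, that of CCT5 in 4, that of CCT4 in 1 and that of CCT2 within both sets. The calls of CCT5 and CCT6A in p53-Y220C cells and of CCT3, CCT4 and CCT5 in p53-null cells were also lost in some alternative fits. The CCT2 rise was lost within both sets (0.13 with leukocyte reads and 0.19 without). The CCT4 rise was lost within the libraries with leukocyte reads (0.12). Pseudogene copies of CCT6A held 0.839% to 1.27% of the reads of CCT6A and the copies together, and TCP1 overlaps ACAT2 on the other strand.

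Per length, TCP1 averaged 608 ± 21.5 TPM in Y220C MS78 libraries, 483 ± 14.1 in Y220C DMSO libraries, 457 ± 8.85 in Null MS78 libraries and 538 ± 4.94 in Null DMSO libraries (SD, n = 4). CCT4 and CCT8 had the lowest TPM of the subunits in all 4 groups. The highest subunit exceeded the lowest by a factor of 2.19 ± 0.109 in Y220C MS78 libraries, 1.99 ± 0.154 in Y220C DMSO libraries, 2.13 ± 0.093 in Null MS78 libraries and 2.34 ± 0.272 in Null DMSO libraries (SD, n = 4). CCT7 varied most among replicates, at 601 ± 99.1 TPM in Null DMSO libraries.

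**Figure D4:**
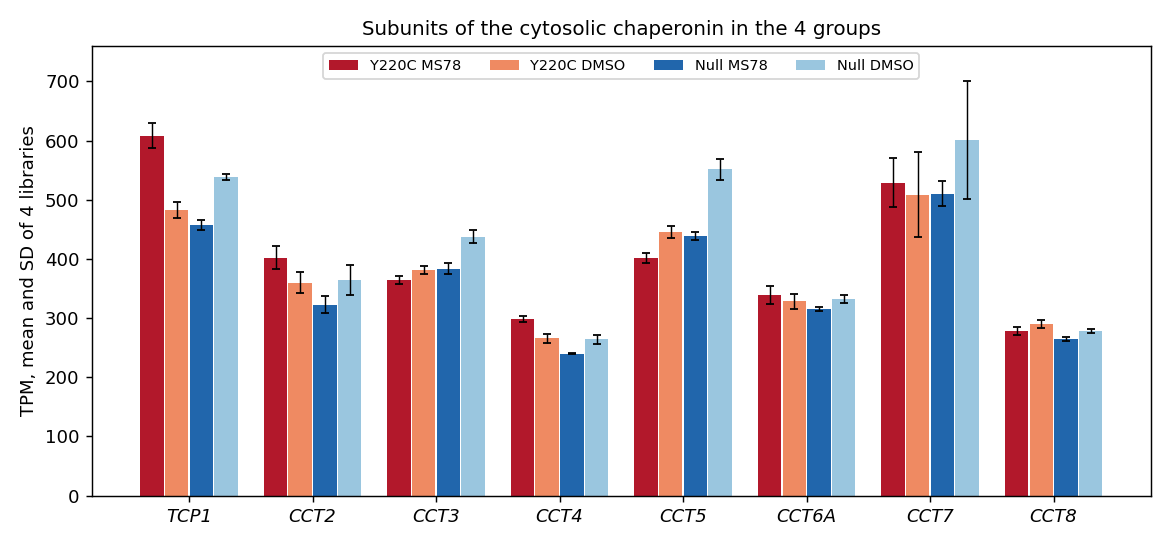
TPM of the 8 CCT subunits in the 4 groups as bars of the mean with the SD of 4 libraries, on an axis that starts at 0. Group means lie between 240.1 and 608 TPM, and TCP1 is the subunit with the clearest increase in Y220C MS78 libraries.

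Under DMSO the lines themselves differed: 15 of 41 genes were higher in the Y220C line (36.6%) and 8 lower (19.5%), against 24.7% and 25.5% of all genes. Differences between the lines were thus common over all genes, and the share of the 41 that was lower lay below that of all genes. HSPB8 (3.17) and HSPH1 (0.45) were the most strongly higher, followed by BAG1 (0.35) and CHORDC1 (0.25), a call lost in some alternative fits. HSPB1 (-0.88), FKBP5 (-0.70), HSPE1 (-0.49), BAG6 (-0.40) and FKBP4 (-0.33) were the most strongly lower. DNAJB1, BAG3 and HSP90AA1 were higher in the Y220C line by 0.20, 0.20 and 0.11, beside log2 fold changes of 2.20, 2.08 and 1.16 under MS78. Within the libraries with leukocyte reads, the line differences of BAG1, BAG3 and HSP90AA1 under DMSO were not called (adjusted p = 0.217, 0.102 and 0.191). The comparison shares its DMSO libraries with both MS78 contrasts.

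Neighbouring parts of the same machinery were listed by name as well. Of 10 genes of the HSP70 family tested, 8 rose and 1 fell in p53-Y220C cells, with a median log2 fold change of 0.79, while 3 rose and 2 fell in p53-null cells (median 0.09). HSPA6, a strictly inducible HSP70, rose by 6.69 ± 0.069 (SE) and the paralogs HSPA1A and HSPA1B by 3.56 ± 0.039 and 3.29 ± 0.043, and reads can be split unevenly between such near-identical genes. Among 10 heat shock responsive genes outside the chaperones 8 rose and 1 fell in p53-Y220C cells (median 0.54), among them the proteasome adaptor ZFAND2A (2.61 ± 0.09) and the autophagy receptor SQSTM1 (1.13 ± 0.031). In p53-null cells 2 of these 10 rose (20%) and 4 fell (40%), with a median of -0.06, against 14.8% and 13.3% of all genes.

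The rest of the HSP90 and J-domain families went both ways. Of 28 further HSP90 paralogs and co-chaperones 14 rose (50%) and 10 fell (35.7%) in p53-Y220C cells (median 0.10). In p53-null cells 3 rose (10.7%, near the 14.8% of all genes) and 9 fell (32.1%), with a median of -0.06. HSP90B1, the HSP90 of the endoplasmic reticulum, rose by 0.96 ± 0.042 (SE), whereas RUVBL2, of the R2TP co-chaperone complex, and TRAP1, the mitochondrial HSP90, fell by 0.65 and 0.47 in p53-Y220C cells and by 0.24 and 0.20 in p53-null cells. Of 29 further J-domain genes tested 11 rose and 6 fell in p53-Y220C cells (median 0.03), and 5 rose and 3 fell in p53-null cells (median 0.03). Among all genes 24.9% rose and 23.6% fell in p53-Y220C cells and 14.8% and 13.3% in p53-null cells, so the share of these J-domain genes that fell (20.7%) and both of their shares in p53-null cells (17.2% and 10.3%) lay near the background, as did the share of prefoldin and helper genes that fell (22.2%). The 3 with the largest change, DNAJB9 (1.41 ± 0.056), DNAJC3 (0.78 ± 0.052) and DNAJB11 (0.74 ± 0.043), all act in the endoplasmic reticulum. Of 9 prefoldin and chaperonin helper genes 2 fell in p53-Y220C cells, PFDN6 by 0.21 and PDCL3 by 0.18, while edgeR and DESeq2 called none higher and 1 was higher at an unadjusted p under 0.05. In p53-null cells 2 of the 9 rose (22.2%) and 1 fell (11.1%), also near the background. Of the 7 further small heat shock protein genes 2 were tested, and 1 of them (HSPB6, under 1 CPM on average and named after its value was seen) fell by 1.16 in p53-Y220C cells.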

How the data were processed

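Polyadenylated RNA of 16 libraries was sequenced, and groups were taken from the labels. The deposited tables list transcripts in the format of Salmon. Estimated counts per transcript and TPM, scaled to effective length and library sum, were made by the authors, per the file headers, which also give transcript lengths. Per the submitters' processing notes, FastQC 0.11.8 checked the reads and the genome was hg38. The sources used here do not state the quantifier's version, annotation or strand setting.

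Of 197653 transcripts, 97.82% matched GENCODE 29 (GRCh38), and unmatched ones held 0.278% to 0.325% of reads. Estimated counts were summed per gene and rounded to whole numbers. edgeR 4.0.16 (R 4.3.3; filterByExpr, TMM, quasi-likelihood F-test) was fitted to all libraries (a mean for each group, leaving 12 residual degrees of freedom), and p-values were adjusted by Benjamini-Hochberg over 15687 genes. CPM are relative to the TMM-scaled library total. DESeq2 1.42.0 and other settings were alternatives. The fit was tested on simulated data.

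The members and lists were chosen with earlier results of these data known. Values per library are given for members past 0.05 with an absolute log2 fold change of at least 0.5 in p53-Y220C cells or in the interaction and for HSF1, HSF2 and both HSP90 genes. From each further list up to 3 called genes with the largest change and at least 1 CPM are named. Windows are from RefSeq, the nearest to the main transcript's start. Of the 6 genes with the largest increase and a window, that of HSPH1 is not printed because its RefSeq start lies 461 bases from the main transcript's start. For a group with 0 reads the floor is 3 reads over its 4 libraries and, like the interval, covers counting error only. Values of some individual genes are not reported here.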

Additional observations from a re-analysis of the deposited data

Results flagged for a closer look

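In 11 of 163 groups examined over the genes, 1 of the 4 libraries lay far from the other 3 by Dixon's test. Chance alone flags about 1 in 20 groups, which is close to the share found. In Y220C MS78 libraries replicate 2 was low for HSP90AA1 (8331 CPM, the others 8892 to 8901) and for DNAJA1 (461 CPM, the others 498 to 502), and replicate 1 was high for AHSA1 (199 CPM, the others 183 to 185). In Y220C DMSO libraries replicate 2 was low for HSPH1 (231 CPM, the others 239 to 240) and held the single CRYAB read of the group (0.0483 CPM, the others 0), and replicate 4 was low for DNAJC7 (86.0 CPM, the others 86.8 to 86.9) and CCT8 (380 CPM, the others 404 to 407). In Null MS78 libraries replicate 1 was low for HSF1 (187 CPM, the others 195 to 197) and replicate 2 for CDC37 (209.6 CPM, the others 219 to 220.4). In Null DMSO libraries replicate 4 was high for FKBP5 (127 CPM, the others 120.1 to 120.6) and replicate 3 for SERPINH1 (189 CPM, the others 167 to 169).

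The response to MS78 differed between the lines, by the interaction test of edgeR, for 31 of 41 genes, with CRYAB counted although it passed the filter only through the group in which it was high. The differences are those of the log2 fold change in p53-Y220C minus that in p53-null cells, and it was above 1 for DNAJB1 (2.01), BAG3 (1.95), HSPH1 (1.69), CHORDC1 (1.68), HSPB8 (1.55) and DNAJB4 (1.39). The fitted 8.71 of CRYAB depends on the prior count, since the null groups had 0 and 2 reads, and is no bound. Differences between 0.5 and 1 were those of HSP90AA1 (0.98), DNAJB2 (0.97), DNAJA1 (0.93), HSPE1 (0.90), HSPD1 (0.84), FKBP4 (0.64), DNAJB6 (0.59) and SERPINH1 (0.51). Smaller ones were found for HSP90AB1 (0.50 after rounding), STIP1 (0.47), PTGES3 (0.46), AHSA1 (0.44), TCP1 (0.44), BAG5 (0.33), CCT4 (0.30), BAG2 (0.28), CCT2 (0.26), HSF2 (0.25), CCT5 (0.16), CCT6A (0.14) and CCT3 (0.13). The difference was negative for BAG1 (-0.47), STUB1 (-0.30) and FKBP5 (-0.21). No explanation was tested.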

How the results depend on the processing

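Each of the 4 comparisons was refitted under up to 28 other settings, the 16 that leave out 1 library included. No called direction turned. Of the values of single genes, 4225 kept their call status, 203 lost the call and 32 gained it. Values called in neither fit could change sign and are among the 4225. Of the losses, 38 and 41 came from fitting only the libraries with or without leukocyte reads. In these fits 2 of the 4 groups hold 1 library each (both DMSO groups with such reads, both MS78 groups without) that is assumed to vary like the others. Within the libraries with leukocyte reads, the counts for p53-null cells were 2346 genes called, with 5 members higher and 2 lower. For the interaction they were 1870 genes and 1 member lower, and for the lines under DMSO 3817 genes, with 4 members higher and 5 lower. Within the libraries without such reads, 3490 genes were called in p53-Y220C cells, with 1 member lower. In p53-null cells 1070 genes were called there, with 3 members higher and 0 lower (edgeR, 4 at an unadjusted p under 0.05), and for the interaction 411 genes, with 18 members higher and 0 lower (edgeR, 2 at an unadjusted p under 0.05). DESeq2 was not run within the sets. With counts made from length-scaled TPM, 2848 genes were called in p53-null cells and 2751 for the interaction. The cause of these shifts, beyond fewer samples in the sets, was not tested.

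Leaving out 1 library in turn gave 6966 to 7647 genes called in p53-Y220C cells, with 26 to 28 members higher and 3 to 5 lower. The same gave 3688 to 4587 genes in p53-null cells with 7 to 10 higher and 5 to 9 lower, 3685 to 4250 genes for the interaction with 25 to 29 higher and 2 to 3 lower, and 7270 to 7938 genes between the lines under DMSO with 13 to 16 higher and 7 to 9 lower. Outside the 2 sets, 27 of 32 calls in p53-Y220C cells, 9 of 17 in p53-null cells, 25 of 31 of the interaction and 15 of 23 between the lines were kept in every setting, and with the sets counted 22, 1 (HSPB1), 18 and 9. The calls lost in p53-Y220C cells were those of BAG5, BAG6, CCT5, CCT6A and HSF2.

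Replicate numbers did not pair the libraries over all groups: deviations of same-numbered libraries correlated at -0.502 to 0.012 between MS78 and DMSO libraries, at 0.15 to 0.531 between the lines under MS78 (4 of 4 pairs over 0.1) and at -0.057 to 0.452 under DMSO (3 of 4). Same-numbered libraries of the same treatment were also alike in having leukocyte reads or not, and those of different treatments were unlike. Number and leukocyte reads therefore cannot be told apart in these pairs. Pairs alike in leukocyte reads but of different number correlated at -0.038 to 0.273. With the replicate block, 3 member calls were lost, BAG5 in p53-null cells (adjusted p = 0.0729) and HSF2 (0.056) and CCT3 (0.064) in the interaction. A replicate block within each treatment, chosen after seeing the data, lost no member call and gained 4, BAG4 and CCT7 in the interaction and CDC37 and CCT7 between the lines, with 4607 and 8201 genes called. Depth limits CRYAB, DNAJA4 and, in p53-null cells, HSPB8.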

Other observations

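The share of a gene's TPM held by each of its transcripts was read as a description, without a test. CHORDC1-203, a transcript annotated for nonsense-mediated decay, held 18.1% ± 1.91 of CHORDC1 TPM in Y220C MS78 libraries and 7.9% ± 3.45 in Y220C DMSO libraries, and 1.7% ± 2.19 in Null MS78 libraries and 2.7% ± 2.48 in Null DMSO libraries (SD, n = 4). The protein-coding CHORDC1-201 was at 16.2% ± 2.33 in Y220C MS78 libraries and 28.2% ± 6.31 in Y220C DMSO libraries. HSPE1-202, whose annotated start lies downstream of that of HSPE1-201, held 53.4% ± 6.8 of HSPE1 TPM in Y220C MS78 libraries and 38.7% ± 3.11 in Y220C DMSO libraries, and 42.9% ± 3.66 in Null MS78 libraries and 43.2% ± 1.0 in Null DMSO libraries.

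For HSPH1, transcript HSPH1-202 held 50.2% ± 3.28 in Y220C MS78 libraries and 43.8% ± 3.0 in Y220C DMSO libraries, and HSPH1-209, which begins further upstream, 9.4% ± 1.56 in Y220C MS78 libraries and 16.2% ± 2.95 in Y220C DMSO libraries. TCP1 showed its shift in the other line: TCP1-201 held 60.8% ± 1.61 in Null MS78 libraries and 49.0% ± 1.16 in Null DMSO libraries, against 51.4% ± 3.55 in Y220C MS78 libraries and 49.8% ± 3.96 in Y220C DMSO libraries. Transcript shares are estimates of the quantifier for reads that several transcripts have in common.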
